A study of Mus musculus with 768 samples.

Results

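The 7 genes described here encode the transcriptional repressor Rest, its corepressor scaffolds Rcor1 and Rcor2, and the splicing regulators Ptbp1, Ptbp2, Srrm4 and Rbfox3. They were chosen by name as 7 of the 27723 genes in the expression table, where all 7 had a row under the capital spellings REST, RCOR1, RCOR2, PTBP1, PTBP2, SRRM4 and RBFOX3. The cells were mouse embryonic stem cells of the line Ainv15(iNgn2.Isl1.Lhx3.V5), in which doxycycline induces a cassette of Neurog2 (Ngn2), Isl1 and Lhx3, which together are known to turn pluripotent cells into spinal motor neurons. Embryoid bodies, which are floating aggregates of these cells, were formed 2 days before doxycycline was added at 3 µg/ml. Viable single cells were sorted into 96 wells at each of 8 times, namely 6, 12, 18, 24, 30, 36 and 48 h after doxycycline and 0 h, and their RNA was read by full-length SMART-Seq2 sequencing. All times carry the cassette, no separate culture is named within a time, no uninduced control taken later is given in the labels, and induction time therefore cannot be told apart from time in culture. Each time is 1 sample, so nothing was tested for significance. Every SD is a spread over cells within a sample, and a difference is given by its size alone.

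Rest binds a DNA element called RE1 beside many neuronal genes and recruits repressive enzymes, holding those genes low outside the nervous system. Rcor1 and Rcor2 bridge Rest to the histone demethylase Kdm1a and to histone deacetylases. Ptbp1 represses neuronal exons in dividing cells, among them an exon of its paralog Ptbp2 whose skipping marks the Ptbp2 RNA for decay. Srrm4 promotes the inclusion of short neuronal exons, including an exon of Rest that yields a truncated repressor, and Srrm4 is itself repressed by Rest. Rbfox3, the NeuN antigen, is a splicing regulator found mainly in maturing neurons.

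Of 768 cells, 368 had at least 2000 genes above 0 and were kept. The times fell into a pair of sets by the level of Sod1 RNA. At 0, 12, 36 and 48 h Sod1 averaged 19553 to 65262 TPM (a share of a cell's total RNA scaled by transcript length). At 6, 18, 24 and 30 h it averaged 518 to 807 TPM. The labels do not say whether these sets are the 2 library batches that they name. Times are compared only within these sets, since set and time cannot be told apart across them. In the Sod1-high set the kept cells numbered 37, 52, 44 and 14 at 0, 12, 36 and 48 h, and the median number of genes per kept cell was 5304, 4269, 2894 and 2141. In the Sod1-low set 53, 56, 55 and 57 cells were kept at 6, 18, 24 and 30 h, with medians of 7484, 7348, 6676 and 6481 genes. The number of genes per cell thus fell with time in each set, and its part in the results was not tested. The summed mean of 8 pluripotency markers was 960 TPM at 30 h, against 2755 TPM at 6 h, and 920 TPM at 36 h, against 6612 TPM at 0 h. Of 11 neuron markers the sum was 743 TPM at 30 h, against 266 TPM at 6 h, and 2447 TPM at 36 h, against 61.8 TPM at 0 h. The 7 neural progenitor markers summed to 468 TPM at 30 h, against 165 TPM at 6 h. Their sum at 36 h came to 758 TPM, of which Fabp7 made up 655 TPM, against 43.9 TPM at 0 h. Within this list Olig2, a motor neuron progenitor marker, was listed at 0 at every time. The 6 motor neuron markers include Isl1 and Lhx3, which are also cassette genes. They summed to 88.8 TPM at 30 h, against 38.1 TPM at 6 h, and to 363 TPM at 36 h, against 3.49 TPM at 0 h. Summed markers of mesoderm and endoderm reached at most 190 TPM and those of glia at most 37.5 TPM, both at 36 h.

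In RefSeq (GRCm38.p6) the genes are protein-coding, with Rest at chr5:77265494-77286432, Rcor1 at chr12:111039367-111115902, Ptbp1 at chr10:79854432-79864435 and Rbfox3 at chr11:118489760-118911597. The promoters of Srrm4 and Ptbp2 are shown because these are the RNAs that were higher at 30 h than at 6 h, and that of Rcor2 because it is the only member promoter with a match to part of the RE1 element. Each runs 250 bases before to 50 bases after the start site in RefSeq (GRCm38.p6), in the direction of the gene, and 6 of the 7 genes had such a window (Rest had none). Srrm4 lies on the minus strand at chr5:116591768-116592067, Ptbp2 on the minus strand at chr3:119783339-119783638, and Rcor2 on the plus strand at chr19:7267144-7267443. Capitals mark GGACAGCG, the right part of the RE1 element.
Srrm4: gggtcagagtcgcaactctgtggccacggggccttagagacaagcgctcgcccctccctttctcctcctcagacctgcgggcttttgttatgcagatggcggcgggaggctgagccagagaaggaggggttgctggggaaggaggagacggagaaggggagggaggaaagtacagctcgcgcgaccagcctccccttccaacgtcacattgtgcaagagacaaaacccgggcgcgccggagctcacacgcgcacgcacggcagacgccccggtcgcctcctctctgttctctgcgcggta
Ptbp2: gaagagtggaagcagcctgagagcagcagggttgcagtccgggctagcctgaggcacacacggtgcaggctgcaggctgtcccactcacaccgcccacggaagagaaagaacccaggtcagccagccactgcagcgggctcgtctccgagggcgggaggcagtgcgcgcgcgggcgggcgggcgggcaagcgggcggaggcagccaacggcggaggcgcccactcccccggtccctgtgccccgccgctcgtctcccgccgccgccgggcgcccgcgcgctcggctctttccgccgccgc
Rcor2: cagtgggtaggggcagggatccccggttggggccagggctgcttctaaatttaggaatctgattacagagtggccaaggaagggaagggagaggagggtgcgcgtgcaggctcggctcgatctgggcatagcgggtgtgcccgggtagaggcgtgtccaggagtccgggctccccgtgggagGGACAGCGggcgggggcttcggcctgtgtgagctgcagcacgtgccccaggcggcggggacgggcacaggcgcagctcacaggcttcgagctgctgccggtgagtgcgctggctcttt

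Both parts of the element were searched on both strands of all 32851 promoter windows. The left part, TTCAGCACC, was found in 0.371% of all windows, in 0 of 6 member windows and in 4 of the 28 windows of 19 listed Rest targets. The right part, GGACAGCG, was found in 1.26% of all windows, in that of Rcor2, 68 bases before its start, and in 2 target windows. The left part followed by the right part with any 2 bases between them, a form that contains both, was found in 3 of all windows and in no member or target window. These matches are descriptions of letters in a short window and do not show binding. The 30 bases at the matches in targets are shown in gene direction, with the match in capitals. On this strand a match to the opposite strand reads GGTGCTGAA for the left part and CGCTGTCC for the right part.
Syn1, chrX:20921125-20921154, minus strand: cggaTTCAGCACCgcggtcagagccttcgc
Celsr3, chr9:108825914-108825943, plus strand: tccgTTCAGCACCgtgggcagcacttctgt
Scg2, chr1:79440021-79440050, minus strand: aagccgaggagctgtccGGTGCTGAAacgg
Unc13a, chr8:71671723-71671752, minus strand: gCGCTGTCCgcgcccccGGTGCTGAAgcga
Gria2, chr3:80802982-80803011, minus strand: aaagCGCTGTCCgcggtgctaaaatcgaat

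The 5 targets with these matches were low. Syn1, a synaptic vesicle protein, and Celsr3, a cadherin of axon guidance, averaged at most 6.12 and 1.43 TPM at any time. Unc13a, which primes synaptic vesicles, was highest at 15.5 TPM at 12 h, and Gria2, a glutamate receptor subunit, at 15.7 TPM at 48 h. Scg2, a secretory granule protein, was listed at 0 at all times of the Sod1-high set and at 24 h, and did not exceed 0.771 TPM at 6, 18 and 30 h.

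Mean Rest RNA was lower at every later time than at the first time of its set. In the Sod1-high set it averaged 65.1 ± 112 TPM at 0 h, 11.9 ± 26.6 TPM at 12 h, 1.83 ± 7.47 TPM at 36 h and 2.45 ± 7.04 TPM at 48 h (SD over cells). At 0 h the cells ran from 0 to 404 TPM with a median of 1.23 TPM, and at 36 h from 0 to 46.2 TPM with a median of 0. The ranges overlapped from 0 to 46.2 TPM, and the difference lay in how many cells held any Rest RNA and in how much they held. Rest was detected in 9.09% of cells at 36 h (4 of 44, 95% exact interval 2.53 to 21.7%) and 62.2% at 0 h (23 of 37, 44.8 to 77.5%). These intervals, as all others given here, cover counting error only. Gene-level TPM does not tell the full Rest RNA from its truncated neuronal form. The log2 fold change of Rest, taken throughout on mean TPM + 1, was -2.36 at 12 h, -4.55 at 36 h and -4.26 at 48 h against 0 h.

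Fewer genes were read per cell at 36 h, which lowers detection of any RNA, so cells within narrower limits of depth were also compared. Among kept cells with fewer than 4000 genes, 44 at 36 h and 6 at 0 h, the log2 fold change of Rest was -5.23. Depth still differed in this class, since no kept cell at 0 h had fewer than 3031 genes and the median at 36 h was 2894. Among cells with at least 4000 genes, 33 at 12 h and 31 at 0 h, it was -1.83.

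In the Sod1-low set Rest was lowest at 18 h. It averaged 12.5 ± 12.0 TPM at 6 h, 3.23 ± 5.61 TPM at 18 h, 6.82 ± 9.87 TPM at 24 h and 8.82 ± 16.6 TPM at 30 h, with medians of 11.1, 0, 1.44 and 2.42 TPM. The highest cell held 53.2 TPM at 6 h, 23.2 TPM at 18 h, 38.5 TPM at 24 h and 86.6 TPM at 30 h. The cells at 30 h thus included a wider spread of Rest levels than those at 6 h, with more cells at 0 and a higher top. Rest was detected in 79.2% of cells at 6 h (interval 65.9 to 89.2%), 48.2% at 18 h (34.7 to 62.0%), 61.8% at 24 h (47.7 to 74.6%) and 61.4% at 30 h (47.6 to 74.0%). Against 6 h the log2 fold change was -1.68 at 18 h, -0.79 at 24 h and -0.46 at 30 h.

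The difference at 18 h rested on the kept cells. With all 96 wells of each time the log2 fold change of Rest was 1.60 at 18 h and 1.00 at 24 h against 6 h. Among the cells left out, 6 of 40 at 18 h and 1 of 43 at 6 h held Rest RNA.

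**Figure D1:**
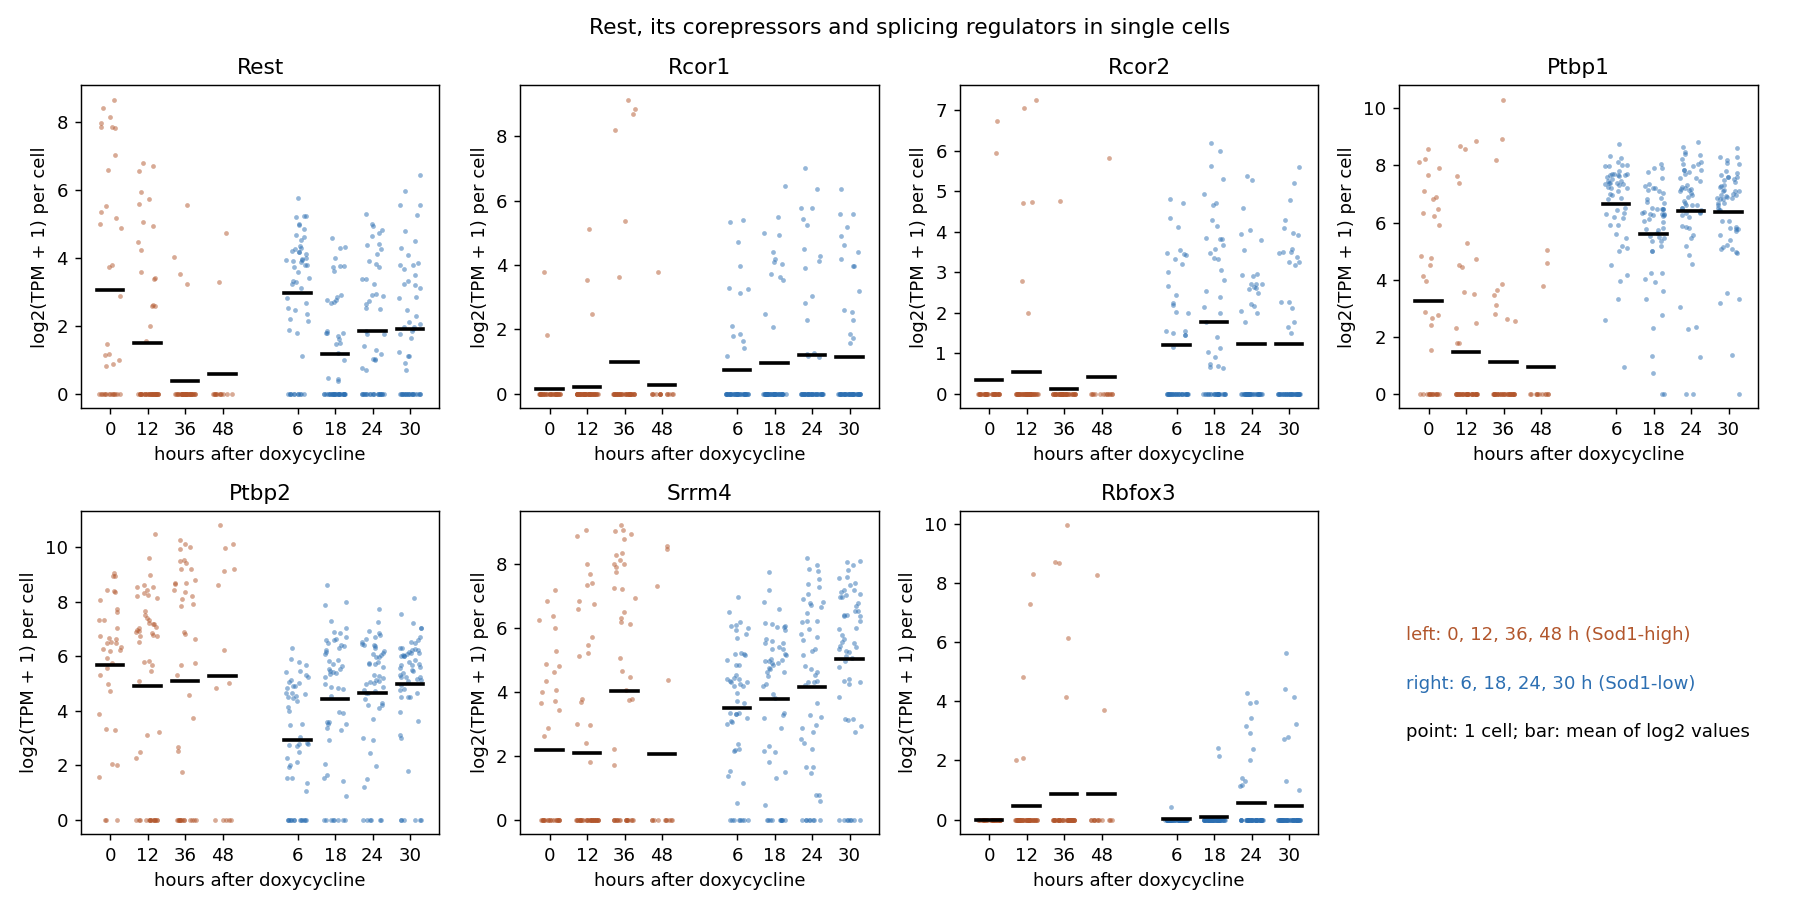
Each point is 1 kept cell, on a log2(TPM + 1) axis against hours after doxycycline, for each of the 7 genes, with the Sod1-high times on the left of each panel and the Sod1-low times on the right; the bar is the mean of the log2 values. Rest thins out after 0 h and after 6 h, Ptbp1 is above 0 in nearly every Sod1-low cell, and Rbfox3 is seen in few cells at any time.

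A gene was called higher or lower when it had a mean of 10 TPM or more in the higher of the times compared, was above 0 in at least 25% of the cells of that time, and differed at least 2-fold. Rest, Srrm4, Ptbp1 and Ptbp2 passed the first and second of these conditions in each of the 6 comparisons, and Rcor1, Rcor2 and Rbfox3 passed in none. At 18 h against 6 h Ptbp2 was called higher and Rest lower, where 11.8% of 6083 passing genes were higher and 7.36% lower. At 24 h against 6 h Srrm4 and Ptbp2 were higher, against 13.5% of 6305 genes, and no member was lower, against 6.28%. At 30 h against 6 h Srrm4 and Ptbp2 were again higher and no member lower, against 13.9% and 6.03% of 6317 genes. In these comparisons Rest passed through its level at 6 h alone, so it could be called lower only.

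Among the Sod1-high times the background of called genes was larger. At 12 h against 0 h Srrm4 was higher and Rest lower, where 17% of 5848 genes were higher and 13% lower. Srrm4 and Ptbp2 at 36 h against 0 h were higher and Rest lower, against 22.5% and 28.5% of 5255 genes. At 48 h against 0 h Srrm4 and Ptbp2 were higher and Rest and Ptbp1 lower, against 22.8% and 43.4% of 5099 genes. Over all passing genes the median log2 fold change was 0.04, -0.18 and -0.62 at 12, 36 and 48 h against 0 h, and 0.07, 0.24 and 0.20 at 18, 24 and 30 h against 6 h. With so many genes called at 48 h, from 14 cells, little can be read from a call there. Rest at 36 and 48 h and Ptbp1 at 48 h passed through their level at 0 h alone, so they could be called lower only.

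Rcor1 and Rcor2 were low and patchy at all times. In the Sod1-low set Rcor1 averaged 3.00, 5.38, 8.88 and 6.29 TPM at 6, 18, 24 and 30 h and was above 0 in 23.2 to 30.9% of cells. Rcor2 averaged 3.52, 8.30, 4.14 and 4.69 TPM at the same times and was above 0 in 36.8 to 57.1% of cells, most often at 18 h. The intervals of the Rcor2 shares at 18 h (43.2 to 70.3%) and 6 h (29.8 to 57.7%) overlapped. At Sod1-high times Rcor1 averaged below 1 TPM at 0, 12 and 48 h but 40.5 ± 129 TPM at 36 h, where 6 of 44 cells held it at up to 563 TPM. Rcor2 there averaged 4.49, 6.63, 0.594 and 3.95 TPM at 0, 12, 36 and 48 h, each mean resting on 1 to 6 cells.

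The mean levels of the scaffolds leaned to Rcor2 at 6 and 18 h and to Rcor1 at 24 and 30 h. On mean TPM + 1 the lean was less than 2-fold each time. The means at 24 h without the added 1, 8.88 TPM for Rcor1 and 4.14 TPM for Rcor2, differed by more than 2-fold. The log2 ratio of Rcor2 to Rcor1 mean TPM + 1, a comparison of levels per transcript length, was 0.18, 0.54, -0.94 and -0.36 at 6, 18, 24 and 30 h. Cell by cell, Rcor2 exceeded Rcor1 in 19 of 29, 26 of 37, 18 of 32 and 16 of 32 cells with either RNA. The lean to Rcor1 was thus not seen in the count of cells. Rcor1 and Rcor2 were found together in 7 of 53, 8 of 56, 7 of 55 and 6 of 57 cells at 6, 18, 24 and 30 h. Rest was present in 58.8% of Rcor1-positive cells (10 of 17) and 62.5% of cells without Rcor1 (25 of 40) at 30 h, shares whose intervals overlapped. At the Sod1-high times no cell held both scaffold RNAs.

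Among 15 other proteins that Rest or its scaffolds recruit, 11 passed at 30 h against 6 h, of which 2 were higher and none lower, beside 13.9% and 6.03% of all passing genes. The median log2 fold change was 0.30 over those 11 and 0.54 over all 15. Hmg20b, a subunit of the Kdm1a complex, was higher, at 17.5 TPM at 30 h and 6.62 TPM at 6 h (log2 fold change 1.28). Cdyl, a corepressor that bridges Rest to histone methylation, had a log2 fold change of -0.70, and the deacetylase Hdac2 of 0.60. At 36 h against 0 h, 10 of 15 passed, with 3 higher and 1 lower, beside 22.5% and 28.5% of all passing genes, and a median of 0.34 over those 10 and 0.53 over all 15. The histone methyltransferases Ehmt2 (39.1 TPM at 36 h, 2.75 TPM at 0 h, log2 fold change 3.42) and Ehmt1 (419 and 95.5 TPM, 2.12) were higher. The scaffold Sin3a was lower (4.80 and 25.4 TPM, -2.19). Ehmt2 was detected in 25.0% of cells at 36 h and 18.9% at 0 h, and was listed at 0 at 48 h. Ehmt1 was detected in 68.2% of cells at 36 h and 97.3% at 0 h. A gene that passed through 1 of the times alone, as Hmg20b, Ehmt2 and Sin3a did, could be called in 1 direction only.

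All 3 matched genes that act on the stability of Rest protein passed in both comparisons. At 30 h against 6 h none was called, with log2 fold changes of -0.60 for the deubiquitinase Usp7, 0.29 for the kinase Csnk1a1 and 0.26 for the deubiquitinase Usp15. Usp15 at 36 h against 0 h was higher, at 208 TPM at 36 h and 52.8 TPM at 0 h (log2 fold change 1.96). It was detected in 36.4% of cells at 36 h, against 54.1% at 0 h, and averaged 2.19 TPM at 48 h. Csnk1a1 had a log2 fold change of -0.82 and Usp7 of 0.11 at 36 h against 0 h. RNA levels do not give the amount of Rest protein.

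Srrm4 was higher at each later time than at the start of its set, by a growing margin in the Sod1-low set. There it averaged 22.6 ± 26.6, 31.9 ± 39.6, 55.7 ± 73.3 and 74.5 ± 73.8 TPM at 6, 18, 24 and 30 h, with medians of 14.6, 24.6, 22.3 and 46.2 TPM and highest cells of 125, 217, 294 and 277 TPM. The share of cells with any Srrm4 was about level, at 84.9, 82.1, 85.5 and 86.0%. What differed was the amount per cell, since at least 10 TPM was reached in 54.7, 62.5, 60.0 and 77.2% of cells. Against 6 h the log2 fold change was 0.48 at 18 h, 1.26 at 24 h and 1.68 at 30 h. Of the cells at 30 h 8 of 57 had none, and the ranges overlapped from 0 upward at every pair of times.

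Srrm4 in the Sod1-high set averaged 18.8 ± 34.6, 45.0 ± 110, 122 ± 175 and 65.6 ± 136 TPM at 0, 12, 36 and 48 h. It was detected in 61.4% of the 44 cells at 36 h (interval 45.5 to 75.6%), against 45.9% at 0 h (29.5 to 63.1%), although fewer genes were read per cell at 36 h. Cells with Srrm4 held a median of 150 TPM at 36 h and 23.6 TPM at 0 h. The log2 fold change against 0 h was 1.22 at 12 h, 2.63 at 36 h and 1.75 at 48 h. Among kept cells with fewer than 4000 genes it was 4.02 at 36 h. The value at 12 h was not stable, at 2.27 in odd-numbered and -0.17 in even-numbered cells and -0.13 over all wells, and at 48 h only 4 of 14 cells held Srrm4.

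**Figure D2:**
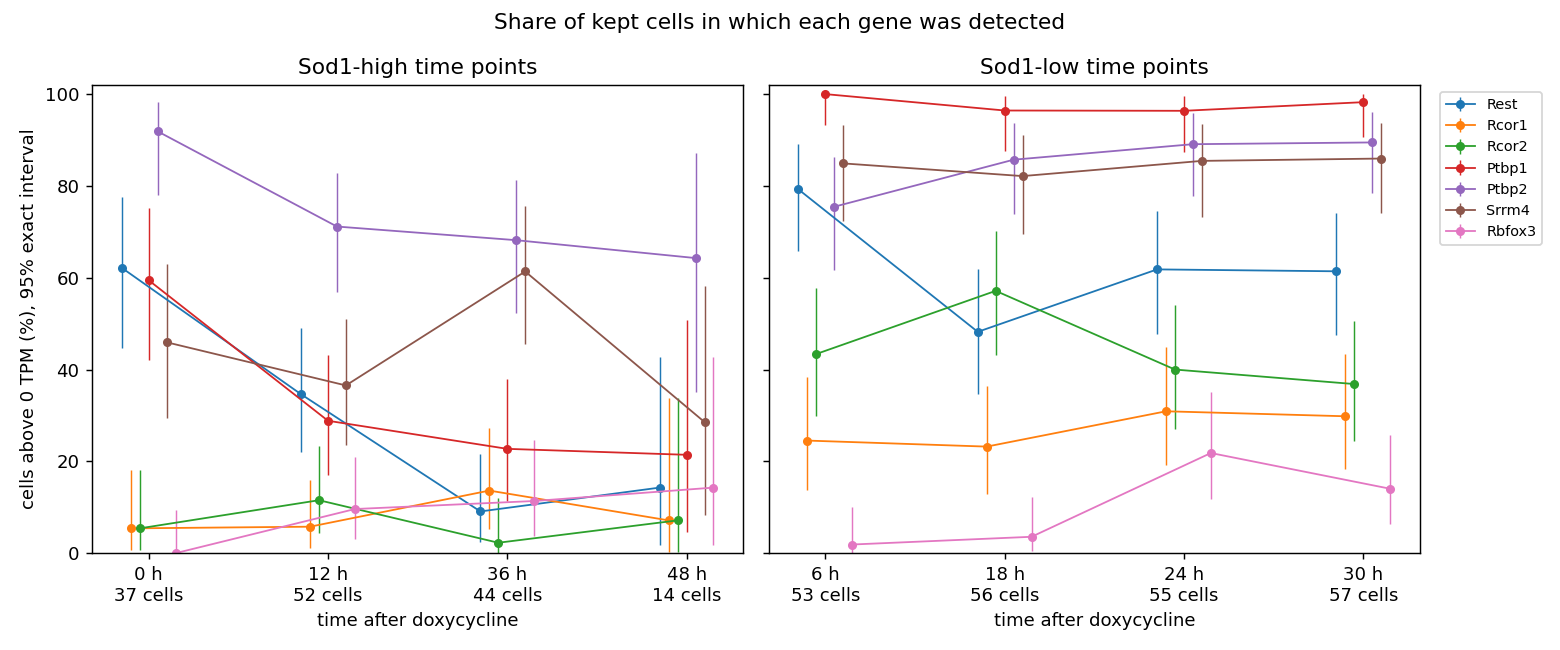
The share of kept cells above 0 TPM (percent, with 95% exact binomial intervals over cells) is plotted for the 7 genes against time, with the Sod1-high set on the left and the Sod1-low set on the right. In the Sod1-low set the Srrm4 share stays between 82.1 and 86.0% while that of Rest is lowest, at 48.2%, at 18 h.

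Ptbp1 was present in nearly every cell of the Sod1-low set throughout. It averaged 144 ± 93.1, 79.9 ± 64.5, 142 ± 109 and 122 ± 87.8 TPM at 6, 18, 24 and 30 h, and was above 0 in 100, 96.4, 96.4 and 98.2% of cells. Its log2 fold change against 6 h was -0.84 at 18 h, -0.02 at 24 h and -0.23 at 30 h, so that no time was 2-fold lower. Ptbp1 in the Sod1-high set averaged 59.3 ± 98.5, 33.9 ± 103, 47.7 ± 206 and 4.79 ± 10.2 TPM at 0, 12, 36 and 48 h, and was above 0 in 59.5, 28.8, 22.7 and 21.4% of cells. At 36 h 1 cell of 1264 TPM held 60.2% of the summed Ptbp1 of that time. Without the highest cell of each time the log2 fold change at 36 h was -1.33, against -0.31 with it. The value of -3.38 at 48 h became 0.44 among kept cells with fewer than 4000 genes, 0.055 with at least 1000 genes and 1.01 over all wells.

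Ptbp2, the neuronal paralog, was higher at all later Sod1-low times. It averaged 16.0 ± 18.3, 54.7 ± 70.9, 47.1 ± 43.4 and 54.4 ± 48.9 TPM at 6, 18, 24 and 30 h, with medians of 6.05, 38.2, 33.8 and 46.5 TPM. The difference had its full size by 18 h, at a log2 fold change of 1.71, with 1.50 at 24 h and 1.71 at 30 h. The share of positive cells was 89.5% at 30 h (interval 78.5 to 96.0%) and 75.5% at 6 h (61.7 to 86.2%), and cells with at least 10 TPM made up 84.2% and 47.2%. Among cells with at least 4000 genes the value at 30 h was 1.51. Over all wells it was -0.94 at 18 h, -0.72 at 24 h and -0.76 at 30 h, where 2 of 43 cells left out at 6 h held Ptbp2 and brought their mean to 135 TPM.

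Ptbp2 in the Sod1-high set averaged 130 ± 148, 152 ± 238, 262 ± 346 and 396 ± 555 TPM at 0, 12, 36 and 48 h, while its share of positive cells was 91.9, 71.2, 68.2 and 64.3%. Fewer cells held it at later times, and those that did held more, with medians of 88.2, 133, 307 and 555 TPM among positive cells. The log2 fold change against 0 h was 0.22 at 12 h, 1.00 at 36 h and 1.60 at 48 h. Among kept cells with fewer than 4000 genes it was -0.25 at 36 h and 0.35 at 48 h. The higher mean at 36 h was thus not seen in this class, where 0 h had 6 cells, none below 3031 genes.

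Mean Ptbp1 exceeded mean Ptbp2 at every Sod1-low time, and mean Ptbp2 exceeded mean Ptbp1 at every Sod1-high time. The log2 ratio of Ptbp2 to Ptbp1 mean TPM + 1 was -3.09, -0.54, -1.57 and -1.15 at 6, 18, 24 and 30 h. At the Sod1-high times it was 1.12, 2.13, 2.43 and 6.10 at 0, 12, 36 and 48 h. Ptbp2 thus made up 30.8% of the summed Ptbp1 and Ptbp2 level at 30 h, against 10.0% at 6 h, and 84.6% at 36 h, against 68.7% at 0 h. The part of the Sod1 set in this balance cannot be told apart from time. Single-end reads of 50 bp from paralogs may be assigned to either gene, and the authors' way of counting them was not found in the sources used here.

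**Figure D3:**
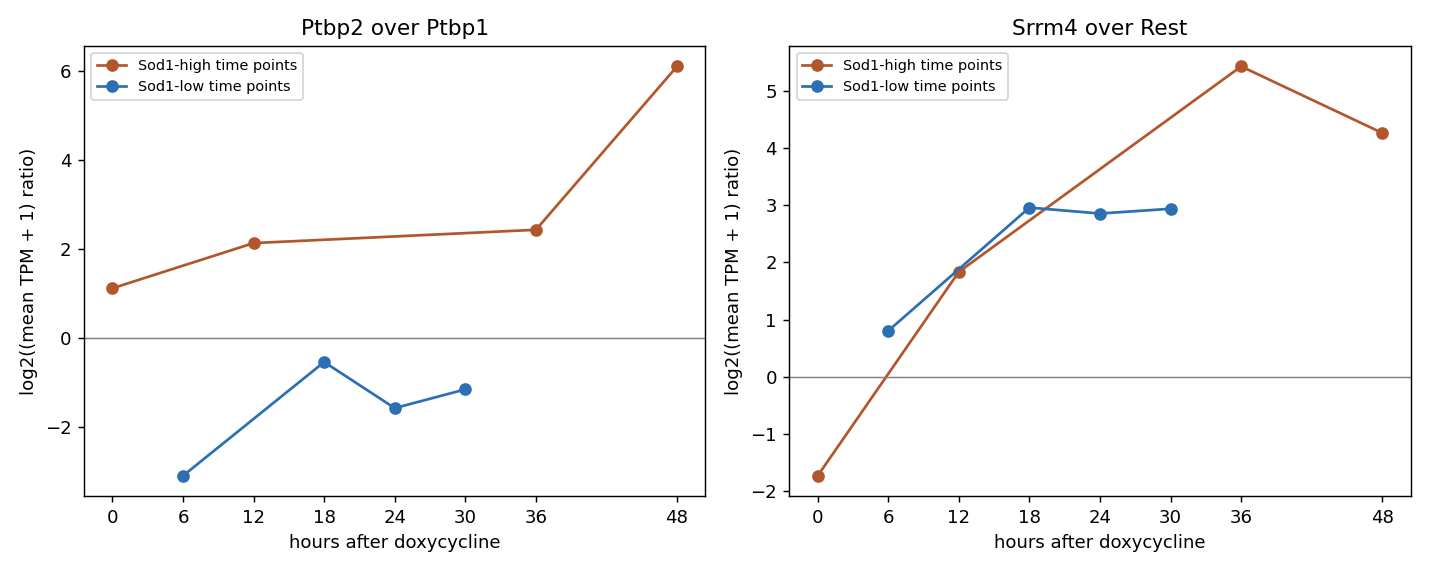
The log2 ratio of mean TPM + 1 per time is plotted against hours after doxycycline, with 1 line per Sod1 set. Ptbp2 over Ptbp1 is on the left and Srrm4 over Rest on the right. Each point is a ratio of means over the kept cells of 1 time. The Ptbp2 to Ptbp1 lines stay apart, from -3.09 at 6 h to 6.10 at 48 h, whereas the Srrm4 to Rest ratio is higher after the first time in both sets.

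The ratio of Srrm4 to Rest was higher after the first time in each set. Its log2 value was 0.80, 2.96, 2.86 and 2.94 at 6, 18, 24 and 30 h, and -1.74, 1.84, 5.44 and 4.27 at 0, 12, 36 and 48 h. In the Sod1-low set it was level after 18 h, while both RNAs were higher at 30 h than at 18 h.

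Although the means moved apart, Rest and Srrm4 RNA were found together in more than 50% of cells at 6, 24 and 30 h and in 39.3% at 18 h. Rest and Srrm4 were both above 0 in 35 of 53 cells at 6 h, 22 of 56 at 18 h, where 24 held Srrm4 alone, 30 of 55 at 24 h and 30 of 57 at 30 h. At 6 h Rest was present in 77.8% of Srrm4-positive cells (35 of 45) and 87.5% of cells without Srrm4 (7 of 8), and at 24 h the shares were 63.8% (30 of 47) and 50.0% (4 of 8). At 30 h they were 61.2% (30 of 49, interval 46.2 to 74.8%) and 62.5% (5 of 8, 24.5 to 91.5%). A difference between cells with and without Srrm4 was not detectable with 8 cells in the smaller class. By contrast, in the Sod1-high set cells with Srrm4 alone made up 24 of 44 at 36 h and 7 of 37 at 0 h, while cells with Rest alone made up 1 of 44 and 13 of 37. Cells with neither numbered 16 at 36 h and 7 at 0 h. Fewer genes were read per cell at 36 h than at 0 h, and the part of depth in these counts was not tested.

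Ptbp1 and Ptbp2 were likewise found together, in 40 of 53 cells at 6 h, 48 of 56 at 18 h, 48 of 55 at 24 h and 50 of 57 at 30 h. All cells without Ptbp2 at 30 h (6) and at 6 h (13) held Ptbp1, and cells with Ptbp2 alone numbered 1 at 30 h and 0 at 6 h. Ptbp2 exceeded Ptbp1 within the cell in 1.89% of cells at 6 h (1 of 53), 30.4% at 18 h (17 of 56), 14.5% at 24 h (8 of 55) and 17.5% at 30 h (10 of 57). The interval at 30 h ran from 8.75 to 29.9% and that at 6 h from 0.0478 to 10.1%. In the Sod1-high set Ptbp2 exceeded Ptbp1 in 27 of 37, 35 of 52, 27 of 44 and 9 of 14 cells at 0, 12, 36 and 48 h. Cells with Ptbp2 and no Ptbp1 RNA, rare in the Sod1-low set, made up 24 of 44 cells at 36 h and 14 of 37 at 0 h. The median number of genes was 2894 at 36 h and 5304 at 0 h, lower than at any Sod1-low time. The part of depth in these counts was not tested.

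**Figure D4:**
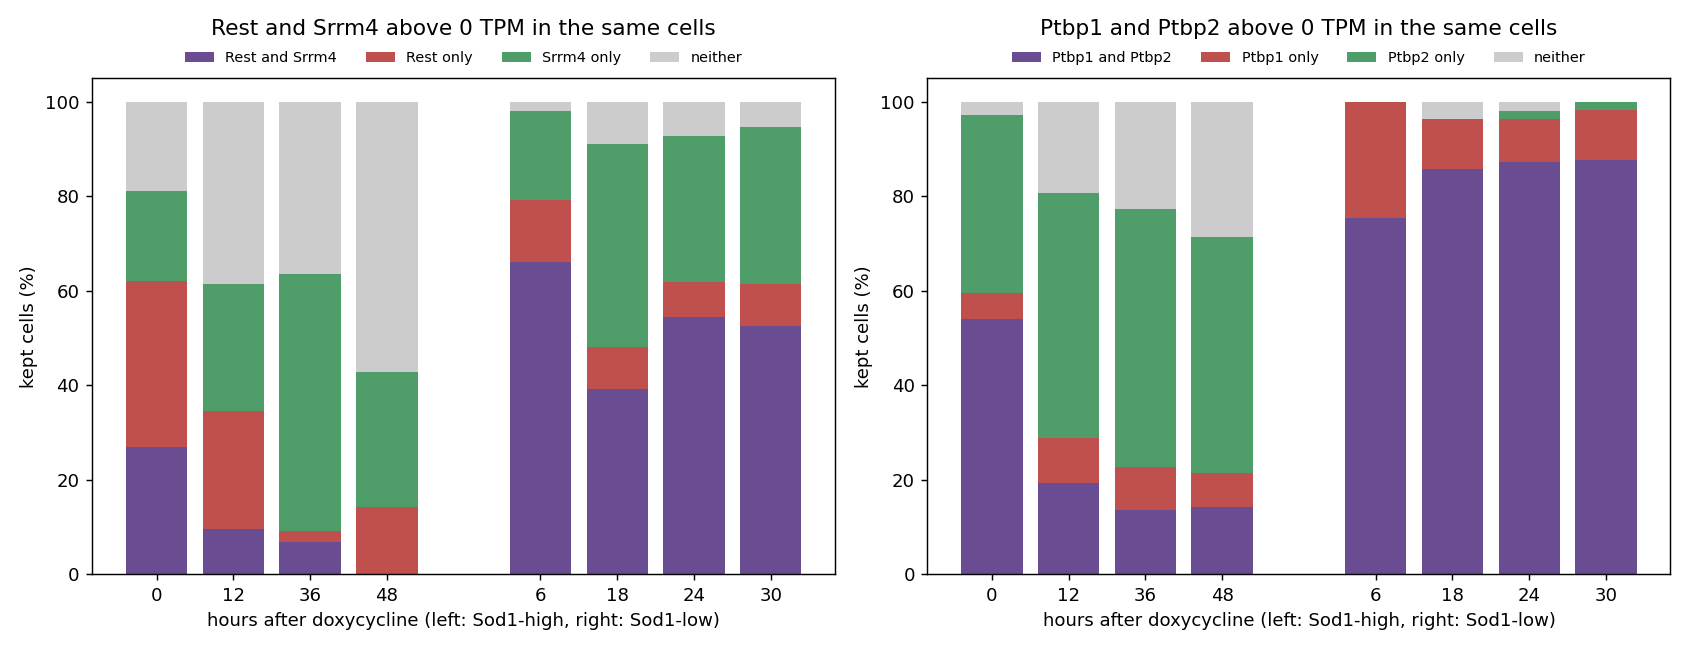
Bars give the share of kept cells (percent) with both RNAs above 0, with either alone and with neither, for Rest and Srrm4 on the left and Ptbp1 and Ptbp2 on the right, against hours after doxycycline with the Sod1-high times first in each panel. Cells with both RNAs make up 52.6% for Rest and Srrm4 and 87.7% for Ptbp1 and Ptbp2 at 30 h.

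Rbfox3 was the rarest of the 7 RNAs, above 0 in 35 of 368 cells. In the Sod1-low set it was found in 1 of 53 cells at 6 h, 2 of 56 at 18 h, 12 of 55 at 24 h (21.8%, interval 11.8 to 35.0%) and 8 of 57 at 30 h (14.0%, 6.26 to 25.8%). Its mean was 0.00623, 0.139, 1.54 and 1.88 TPM at these times, and the highest cell held 48.2 TPM. Among Sod1-high times it was listed at 0 in each of the 37 cells at 0 h, so the share could be up to 8.11%. There were 5 of 52, 5 of 44 and 2 of 14 positive cells at 12, 36 and 48 h. These few cells reached 313, 987 and 309 TPM, and no fold change is given against 0 h.

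All 12 Rbfox3-positive cells at 24 h and all 8 at 30 h also held Srrm4, while 0 of 8 cells without Srrm4 at each time held Rbfox3, which allows a share of up to 37.5%. Most cells of these times held Srrm4, 85.5% at 24 h and 86.0% at 30 h, so these counts do not set Rbfox3-positive cells apart. At 36 h 3 of 5 Rbfox3-positive cells held Srrm4 and at 12 h 1 of 5, so that Srrm4 was not found in all Rbfox3-positive cells of the Sod1-high set. Rest was present in 6 of 8 Rbfox3-positive cells at 30 h and 8 of 12 at 24 h.

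Cells with Srrm4 or Rbfox3 RNA had higher levels of Rest target RNAs at 24 and 30 h. A score was taken per cell as the mean of log2(TPM + 1) over 26 target genes. At 30 h it averaged 2.03 ± 0.831 in the 8 Rbfox3-positive cells and 1.05 ± 0.735 in the 49 without, and at 24 h 2.09 ± 0.996 in 12 and 0.997 ± 0.682 in 43 cells (SD over cells). Srrm4-positive cells scored 1.30 ± 0.821 and cells without Srrm4 0.501 ± 0.289 at 30 h. The median number of genes was 6751 in Rbfox3-positive cells and 6411 in the others at 30 h, and 6457 in Srrm4-positive cells and 6629 in the others. At 24 h these medians were 7020 and 6581 for Rbfox3 but 6900 and 4589 for Srrm4, whose classes thus differed in depth.

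Rest itself divided the cells little by this score. It averaged 1.10 ± 0.747 in Rest-positive cells and 1.34 ± 0.916 in cells without Rest at 30 h, and 1.26 ± 0.875 and 1.19 ± 0.906 at 24 h. At 36 h, where 5 cells held Rbfox3, the score was 0.892 ± 0.846 in them and 0.912 ± 0.814 in the others, a difference smaller than the spread between cells.

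Of the 26 Rest targets found in the table, 7 passed at 30 h against 6 h, and 4 of these were higher and none lower, beside 13.9% and 6.03% of all passing genes. The median log2 fold change was 1.76 over those 7 and 0.41 over all 26, beside 0.20 over all passing genes. The granule protein Chga averaged 51.9 TPM at 30 h and 1.77 TPM at 6 h (log2 fold change 4.25). For the microtubule regulator Stmn2 the means were 124 and 9.57 TPM (3.56), and for the granule protein Scg3 22.2 and 1.56 TPM (3.18). The vesicle fusion protein Snap25 averaged 30.7 and 8.36 TPM (1.76). The highest cell at 30 h held 50.8% of the summed Snap25, which was detected in 31.6% of cells, against 37.7% at 6 h. In the comparison of 36 h with 0 h 6 passed and all 6 were higher, beside 22.5% of all passing genes, with a median of 2.46 over those 6 and 1.70 over all 26, of which 7 were listed at 0 at either time. Snap25 averaged 539 TPM at 36 h and 14.3 TPM at 0 h (5.14), Stmn2 229 and 6.06 TPM (5.02), the vesicle protein Syp 16.5 and 1.16 TPM (3.02), and the neuronal tubulin Tubb3 97.2 and 25.4 TPM (1.90). The highest cell at 36 h held 73.3% of the summed Syp, which was detected in 31.8% of cells, against 32.4% at 0 h. A gene that passed through its later level alone had to be higher, so these counts are descriptions only.

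**Figure D5:**
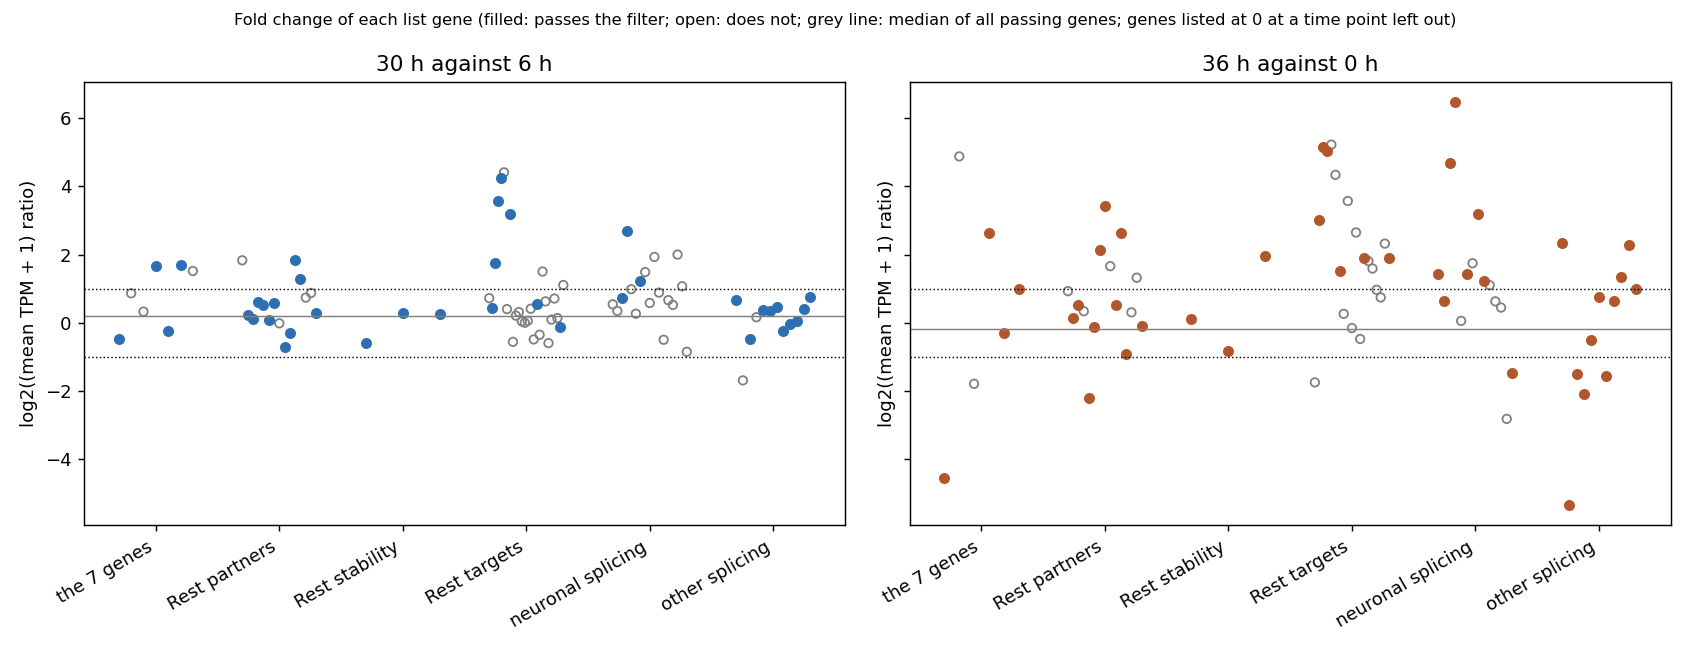
Each point is a gene of the named list, on an axis of log2 fold change of mean TPM + 1, for 30 h against 6 h on the left and 36 h against 0 h on the right; filled points pass the filter on low values, open points do not, dotted lines mark 2-fold, and the grey line is the median of all passing genes. Rest targets reach 4.25 (Chga) at 30 h, and Rest has the value -4.55 at 36 h.

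Among 17 other splicing regulators with roles in neurons, 3 passed at 30 h against 6 h, and 2 of them were higher, beside 13.9% of all passing genes. As for the targets, a gene that passed through its later level alone had to be higher. The median was 1.24 over those 3 and 0.73 over all 17. Elavl3, a neuronal RNA-binding protein, averaged 12.8 TPM at 30 h and 1.16 TPM at 6 h (log2 fold change 2.68), Rbfox2 43.0 and 17.6 TPM (1.24), and Elavl2 26.7 and 15.6 TPM (0.73). Of these 17, 8 passed at 36 h against 0 h, with 6 higher and 1 lower, beside 22.5% and 28.5% of all passing genes, and a median of 1.43 over those 8 and 1.10 over all 17. The Elavl3 relative Elavl4 (115 TPM at 36 h, 0.320 TPM at 0 h, 6.46), Elavl3 (98.7 and 2.87 TPM, 4.69) and Celf2, an RNA-binding regulator of exon use (82.4 and 8.15 TPM, 3.19), were higher. Mbnl2, a regulator of developmental splicing, was lower (5.70 and 17.6 TPM, -1.47). It passed through its level at 0 h alone, so it could be called lower only.

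Of 13 splicing regulators of dividing or epithelial cells and Ptbp1 cofactors, 10 passed at 30 h against 6 h and none was called, with a median of 0.36 over those 10 and 0.17 over all 13. Values of the 10 passing genes ran between the Ptbp1 cofactor Raver1 at -0.48 and the RNA-binding protein Qk at 0.74, with Ptbp3, the third paralog, at 0.68 and Hnrnpk, a general splicing regulator, at 0.47. Of these 13, 11 passed at 36 h against 0 h, with 3 higher and 4 lower, beside 22.5% and 28.5% of all passing genes, and a median of 0.63 over those 11 and over all 13. Esrp1, which sets epithelial splicing, was lower, at 0.589 TPM at 36 h and 63.0 TPM at 0 h (log2 fold change -5.33), as was the exon repressor Hnrnpl, at 80.6 and 344 TPM (-2.08). Ptbp3 (70.1 and 13.1 TPM, 2.34) and the Ptbp1 cofactor Matr3 (414 and 84.9 TPM, 2.27) were higher. Esrp1 and Raver1, both among the genes called lower at 36 h, passed through their level at 0 h alone. They could therefore be called in no other direction.

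Over the 8 times, after subtracting the mean of each Sod1 set from log2(mean TPM + 1), Rest ran opposite to Srrm4 (Pearson r -0.76) and to Ptbp2 (-0.72), and Srrm4 ran with Ptbp2 (0.71). These values describe 8 means in shared libraries. The genes most like Rest by this measure among 7267 were Fam49a (0.984), Hist1h4d (0.983) and Top3b (0.982). Those most like Srrm4 were Chml (0.991), Dcaf8 (0.990) and Dusp22 (0.984), and those most like Ptbp2 were Elavl2 (0.982), Pdha1 (0.979) and Zcchc14 (0.968). Those most like Ptbp1 were Sap130 (0.995), Sin3b (0.992) and Ak1 (0.991). Ptbp1 and these 3 genes each had their lowest Sod1-high mean at 48 h, from 14 cells. The means there were 4.79, 1.91, 6.53 and 0 TPM for Ptbp1, Sap130, Sin3b and Ak1. The part of that time in their likeness was not tested. Top3b, a topoisomerase, averaged 76.6, 34.2, 6.05 and 6.89 TPM at 0, 12, 36 and 48 h, and 53.4, 19.8, 35.2 and 41.7 TPM at 6, 18, 24 and 30 h, with the same low at 18 h as Rest.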

How the data were processed

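Per the labels' protocols, libraries were made with SMART-Seq2 and sequenced as single-end reads of 50 bp, with 325000 reads per cell stated as the average, in 2 library batches, and the sources used here do not say which cells were in each. The authors deposited 1 table of TPM values for 27723 genes and 768 cells. Per the submitters' processing notes, mm10, bcl2fastq and Picard were used, without tool versions. For aligner and annotation, nothing was given in the sources used here. Since TPM keeps no depth, the number of reads behind a value is unknown, and reads carry no molecular identifiers. TPM values per gene do not tell splice forms apart.

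A cell was kept when 2000 or more of its genes were above 0, which held for 368 cells and left out 400. Mean TPM, SD over cells and the percentage of cells above 0 with its exact (Clopper-Pearson) 95% interval were computed per time. For a share of 0 the upper limit is 3 cells divided by all cells of that time. Fold changes are log2 of the ratio of mean TPM + 1, which understates changes of low genes. The filter was a mean of at least 10 TPM and 25% of cells above 0 in the higher time. With 1 sample per time no test was run. The fold and filter steps were checked on simulated cells.

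The 7 genes and the lists were chosen with earlier results of these data known. Lists came from general knowledge. Named genes are all 7 members, for each list up to 4 passing genes that differed most between 30 h and 6 h and up to 4 between 36 h and 0 h, and the 3 genes most like each member that passed; the targets with a motif match are named in addition. A gene that this rule names is counted in its list but not reported here. Of the list and marker genes, 123 matched by symbol, 5 by a RefSeq synonym and 3 were not matched. Alternatives were pseudocounts of 0.1 and 10 TPM, rescaled medians, no filter, other depth limits, odd-numbered or even-numbered cells, means without the highest cell, and detection at 10 TPM or among the 2000 highest genes of a cell. Kept cells with fewer than 4000 genes were added as an alternative after seeing the data. Promoter sequences came from RefSeq (GRCm38.p6). Figures used matplotlib 3.10.9, and computations ran in Python 3.11.15 with scipy 1.17.1, pandas 2.3.3 and numpy 2.4.6.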

Additional observations from a re-analysis of the deposited data

Results flagged for a closer look

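Cells with fewer than 2000 genes above 0 were left out of the main comparisons and entered only the alternatives with all cells or at least 1000 genes. Ptbp2 was above 0 in 36.6% of the 82 cells left out at 48 h (30 cells, interval 26.2 to 48.0%) and in 8.47% of the 59 left out at 0 h (5 cells, 2.81 to 18.7%). The share was singled out because it lay above the level in uninduced cells of the same kind. The median number of genes was 1044 in the cells left out at 48 h and 366 in those at 0 h, and the part of this depth in the difference was not tested. Ptbp2 averaged 366 TPM over the cells left out at 48 h, against 83.7 TPM over those at 0 h.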

How the results depend on the processing

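No paired analysis was possible because each time is 1 sample and the cell numbers only name cells, so no test with a block exists. Among the counts of called members, 94 stayed within 1.5 times and 34 moved; the cause was not tested. Here all cells means all 96 wells of a time, and under 4000 genes means kept cells below that number. At 12 h against 0 h the count of higher members was 1 and became 0 with a pseudocount of 10, all cells, at least 1000 genes, even-numbered cells or under 4000 genes, and 2 without a filter, and the count of lower members was 1 and became 2 with all cells or odd-numbered cells. At 36 h against 0 h the count of higher members was 2 and became 1 with a pseudocount of 10, all cells, even-numbered cells or under 4000 genes, and 4 without a filter, and that of lower members was 1 and became 2 without a filter or without the highest cell. At 48 h against 0 h 2 higher became 1 with all cells, odd-numbered cells or under 4000 genes, and 2 lower became 0 with all cells and 1 with at least 1000 genes or under 4000 genes. At 18 h against 6 h 1 higher became 2 without a filter, with even-numbered cells or under 4000 genes and 3 with all cells, and 1 lower became 0 with a pseudocount of 10 or all cells and 3 with under 4000 genes. At 24 h against 6 h 2 higher became 4 without a filter, and 0 lower became 1 with rescaled medians, odd-numbered cells or under 4000 genes. At 30 h against 6 h 2 higher became 1 with all cells, and 0 lower became 1 with under 4000 genes. Log2 fold changes changed sign over all cells for Srrm4 at 12 h (-0.13), Ptbp1 at 48 h (1.01), Rest at 18 h (1.60) and 24 h (1.00) and Ptbp2 at 18 h (-0.94), 24 h (-0.72) and 30 h (-0.76); in even-numbered cells for Srrm4 at 12 h (-0.17); with at least 1000 genes for Ptbp1 at 48 h (0.055); and with under 4000 genes for Ptbp2 at 36 h (-0.25), Ptbp1 at 48 h (0.44) and 24 h (1.31, 2 against 4 cells) and Srrm4 at 18 h (-1.01) and 24 h (-4.30). The log2 Rcor2 to Rcor1 ratio was 0 at 48 h without the highest cell and -1.08 at 24 h with a pseudocount of 0.1. The alternative of at least 4000 genes was not run at 36 and 48 h, where 0 cells reached it. Under stricter detection 63 shares of cells with a member moved beyond their interval and 49 did not. The 14 cells at 48 h had a median of 2141 genes, which limits what their shares can show.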
